A study of Sus scrofa with 5 samples.

Results

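The nuclear respiratory chain subunit genes were taken as all gene symbols beginning with NDUFA, NDUFB, NDUFC, NDUFS, NDUFV, SDH, UQCR, COX4, COX5, COX6, COX7, COX8 or ATP5. The rule found 90 members among the 30029 gene symbols of the single-cell count tables, and 81 of them among the 29886 symbols of the bulk FPKM table. By their known roles, 36 members are subunits of complex I, 4 of complex II, 2 of complex III (UQCR10 and UQCRB), 10 of complex IV (NDUFA4 and its relative NDUFA4L2 were counted here) and 23 of ATP synthase, where some genes are listed under an earlier and a later symbol. The prefixes also took 12 assembly factors, which help to build complexes I and II and are not part of them, the acyl carrier NDUFAB1, and 2 further ATP5 symbols (ATP5S and the inhibitor ATP5IF1). Subunits whose symbols the rule did not find, such as COX4I1 or UQCRC1, were not analysed here.

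The respiratory chain sits in the inner mitochondrial membrane. Complex I takes electrons from NADH and complex II from succinate, ubiquinone carries them to complex III, cytochrome c carries them on to complex IV, and complex IV passes them to oxygen. Complexes I, III and IV pump protons, and ATP synthase uses the proton gradient to make ATP. A few core subunits are encoded by mitochondrial DNA and all others by the nucleus, so that a working chain needs transcripts of both genomes. Pluripotent cells are known for a high rate of glycolysis, and trophectoderm for abundant and active mitochondria.

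The series holds 2 single-cell RNA-seq libraries of porcine blastoids and 3 bulk RNA-seq libraries of porcine embryonic stem cells (pESCs). The blastoids, blastocyst-like structures built from pESCs, were kept in iBlastoid medium, chosen by eye for a cavity and both compartments, picked by mouth pipette and dissociated on day 6. The pESCs, labelled pESC-1, pESC-2 and pESC-3, were grown in 4FIXY medium on mouse embryonic fibroblast feeders. Their table carries the library names IVFP25, PA_4P7 and PAP25. The blastoids were made at a higher oxygen tension than the one the pESCs were kept at. The paper derived its pESCs from parthenogenetic blastocysts, while the library names differ among themselves. Each kind of sample has a single group label, so the tests are between cells of the same blastoids. The pESC libraries, which may not be alike, are described without a test.

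Barcodes with at least 11223 unique molecular identifiers (UMIs) in library 1 and 9805 in library 2 were used as cells, which gave 7369 and 8175 cells with a median of 29728 and 27588 UMIs. They shared 9 barcodes. Within each library the cells in the top 5% by UMIs of POU5F1 (a pluripotency factor), CRABP1 (a retinoic acid binding protein), GABRP (a GABA receptor subunit), TP63 (a basal epithelial transcription factor) or COL3A1 (a fibrillar collagen) per 10000 UMIs, with at least 3 UMIs of that gene, were taken as 5 gates. Cells in more than 1 gate, 20 in library 1 and 43 in library 2, were left out. A gate held between 357 and 405 cells per library. No member was used to gate the cells.

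Other genes were checked in the gates as UMIs per 1000000 UMIs (CPM, mean of both libraries). DNMT3B stood at 413 CPM in POU5F1-high cells and between 11.2 and 32.4 in the other gates. Of the markers listed for a gate, 6 of 7 had their highest level in POU5F1-high cells, 4 of 7 in CRABP1-high cells, 5 of 8 in GABRP-high cells, 3 of 5 in TP63-high cells and 6 of 6 in COL3A1-high cells. L1TD1, listed for POU5F1-high cells, was higher in CRABP1-high cells. SOX2 and OTX2, listed for CRABP1-high cells, were higher in POU5F1-high cells, and NES was higher in COL3A1-high cells. GATA2 and TFAP2A, listed for GABRP-high cells, were higher in TP63-high cells, and TFAP2C was higher in POU5F1-high cells. Of the TP63-high list, KRT19 was highest in GABRP-high cells (1778 against 1317 CPM) and ITGB4 in POU5F1-high cells (11.9 against 8.85 CPM). PAX6 reached 40.0 CPM in CRABP1-high cells, TAC3 612 CPM in GABRP-high cells and COL1A1 707 CPM in COL3A1-high cells. TP63-high cells had TFAP2A at 394 CPM, near the 376 CPM of GABRP-high cells. They had hardly any of the basal keratins KRT5 (0.147 CPM) and KRT15 (0.837 CPM), though both add to their count of 3. Their gate is thus a gate on TP63 and not a keratinocyte population. Of the cardiac muscle genes listed, MYL7, a myosin light chain, was highest in COL3A1-high cells (164 CPM). MYL4, TNNT2, NKX2-5 and TNNI1 were also highest there, but at 14.3 CPM or less. ACTC1 was higher in POU5F1-high cells (68.3 against 47.5 CPM). The gates are called by their gene only.

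In all, the members took 1.74% and 1.83% of UMIs in POU5F1-high cells of library 1 and library 2 (mean 1.78% ± 0.0620, SD, n = 2). CRABP1-high cells followed with 1.53% and 1.52%, GABRP-high cells with 1.47% and 1.48%, COL3A1-high cells with 1.44% and 1.46%, and TP63-high cells were lowest with 1.31% and 1.33%. The order was the same in both libraries and no gates overlapped, though COL3A1-high and GABRP-high cells lay as close as 1.46% and 1.47%. Cells in no gate had 1.51% and 1.52%.

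Depth differed between the gates, and free RNA was read for each library as a whole. The median POU5F1-high cell held 39899 and 35842 UMIs, against 19832 to 27183 in the other gates. Empty droplets, taken as barcodes of 10 to 100 UMIs, had 1.84% and 1.87% of their UMIs in the members, more than any gate. Free RNA is shared by all cells of a library, and its part in the differences between gates was not tested. Among cells with 20000 to 35000 UMIs alone, 57 of 76 members tested were higher and 1 was lower in POU5F1-high cells by edgeR's test, where 24.3% of all genes were higher and 24.4% lower. This window kept 93 of 363 POU5F1-high cells in library 1 and 132 of 405 in library 2. Depth inside the window was not compared between gates.

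**Figure D1:**
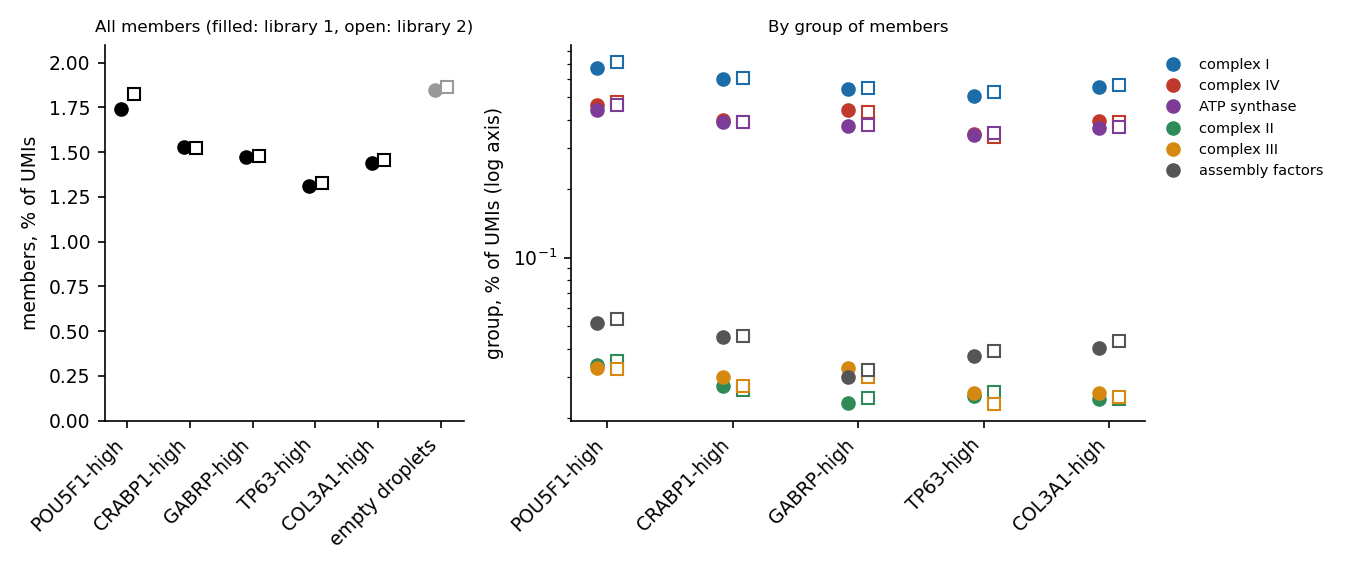
Share of UMIs in the members, by gate and library. Left, all 90 members in % of UMIs (filled circle, library 1; open square, library 2; grey, empty droplets), where POU5F1-high cells are highest of the 5 gates at 1.74% and 1.83% and TP63-high cells lowest at 1.31% and 1.33%. Right, 6 groups of members on a log axis, where complex I takes the most in every gate and the assembly factors are lowest in GABRP-high cells.

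UMIs were summed per library and gate, and each gate was compared with the mean of the other 4 on the log scale by edgeR's quasi-likelihood test over 16084 genes, with Benjamini-Hochberg adjustment over all of them and a threshold of 0.05. Of the 90 members, 77 passed the filter on low counts. The 5 comparisons use the same 10 sums, so a gate that is high makes the others lower, and they are not independent of each other. Log2 fold changes are on the scale of TMM, which sets the typical gene to no change between sums, while CPM values are plain shares of UMIs. Values after ± beside a log2 fold change are standard errors. The 2 libraries are the only replicates, and nothing says that they came from separate cultures, so the p-values measure only the spread between these libraries.

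POU5F1-high cells had the highest summed share of the nuclear members among the 5 gates. Of the 77 members tested, 57 were higher and 4 lower than in the other gates, where 31.6% of all genes were higher and 29.6% lower. The median log2 fold change of the members was 0.30, against -0.01 over all genes. By complex, 27 of 36 subunits of complex I, all 4 of complex II, 1 of 2 of complex III, 6 of 9 of complex IV and 9 of 12 of ATP synthase were higher. In 50 of the 77 members both POU5F1-high sums lay above all 8 other sums in CPM, which was so for 19.3% of all genes. Without TMM factors 63 were higher and 3 lower, where 34.7% of all genes were higher and 26.5% lower.

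The member with the largest increase was NDUFAF4, a complex I assembly factor. It stood at 57.7 and 69.1 CPM in POU5F1-high cells, 36.6 and 37.5 in CRABP1-high cells, 30.8 and 35.0 in COL3A1-high cells, 21.3 and 23.3 in TP63-high cells, and 13.98 and 13.0 in GABRP-high cells. No gates overlapped, and the order was the same in both libraries. Its log2 fold change in POU5F1-high cells was 1.31 ± 0.08 (edgeR, adjusted p = 1.20e-07).

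NDUFC1, a small membrane subunit of complex I, had 66.1 and 73.5 CPM in POU5F1-high cells and between 29.2 and 43.5 in the other 8 sums (log2 fold change 0.94 ± 0.08, edgeR adjusted p = 8.34e-07). NDUFS3, a core subunit of the arm that takes electrons from NADH, had 172 and 198 CPM against 91.5 to 133 elsewhere (0.67 ± 0.08, edgeR adjusted p = 1.12e-05). In both genes the lowest POU5F1-high sum was above the highest sum of any other gate. SDHB, the iron-sulfur subunit of complex II, showed the same order, with 146 and 158 CPM against 79.5 to 105 (0.67 ± 0.06, edgeR adjusted p = 3.12e-06). NDUFAB1, the mitochondrial acyl carrier protein that is also bound to complex I, was at 437 and 483 CPM against 234 to 339.7 (0.66 ± 0.07, edgeR adjusted p = 4.42e-06).

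Of 12 ATP synthase members tested, 9 were higher, 1 lower and 2 not past the threshold in these cells. Of these 9, ATP5A1, ATP5H and ATP5G1 had few UMIs beside their level in pESCs, as described below. ATP5G1, which encodes a form of the c subunit of the rotor ring, had 32.2 and 35.1 CPM against 14.7 to 19.7 elsewhere (log2 fold change 0.92 ± 0.08, edgeR adjusted p = 1.20e-06). It had few UMIs beside its level in pESCs, at 20.4 CPM over all blastoid cells beside 166 FPKM. ATP5G2, another gene for the same protein, had 617 and 691 CPM in POU5F1-high cells and 610.1 to 673 elsewhere, with overlapping sums and a log2 fold change of -0.05 ± 0.06 (edgeR adjusted p = 0.474). ATP5E, the epsilon subunit, went the other way. It had 251 CPM in both POU5F1-high sums, below all 8 others at 290.2 to 367 (-0.39 ± 0.06, edgeR adjusted p = 7.47e-05).

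The other 3 members lower in POU5F1-high cells were COX6C of complex IV (-0.17 ± 0.05), the assembly factor ATP5SL (-0.15 ± 0.06) and NDUFA4L2 (-1.42 ± 0.41), a relative of NDUFA4 known from low oxygen. NDUFA4L2 was near its floor everywhere, at 0.328 and 0.671 CPM in POU5F1-high cells and at most 2.28 CPM in any sum. ATP5SL was past the threshold by little (edgeR adjusted p = 0.0443) and not past it with DESeq2, without TMM factors, without the filter on low counts, with a top 10% gate or at matched depth. At matched depth COX6C was not past it either (-0.04), NDUFA4L2 was too low to be tested, and ATP5E alone was lower (-0.28).

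**Figure D2:**
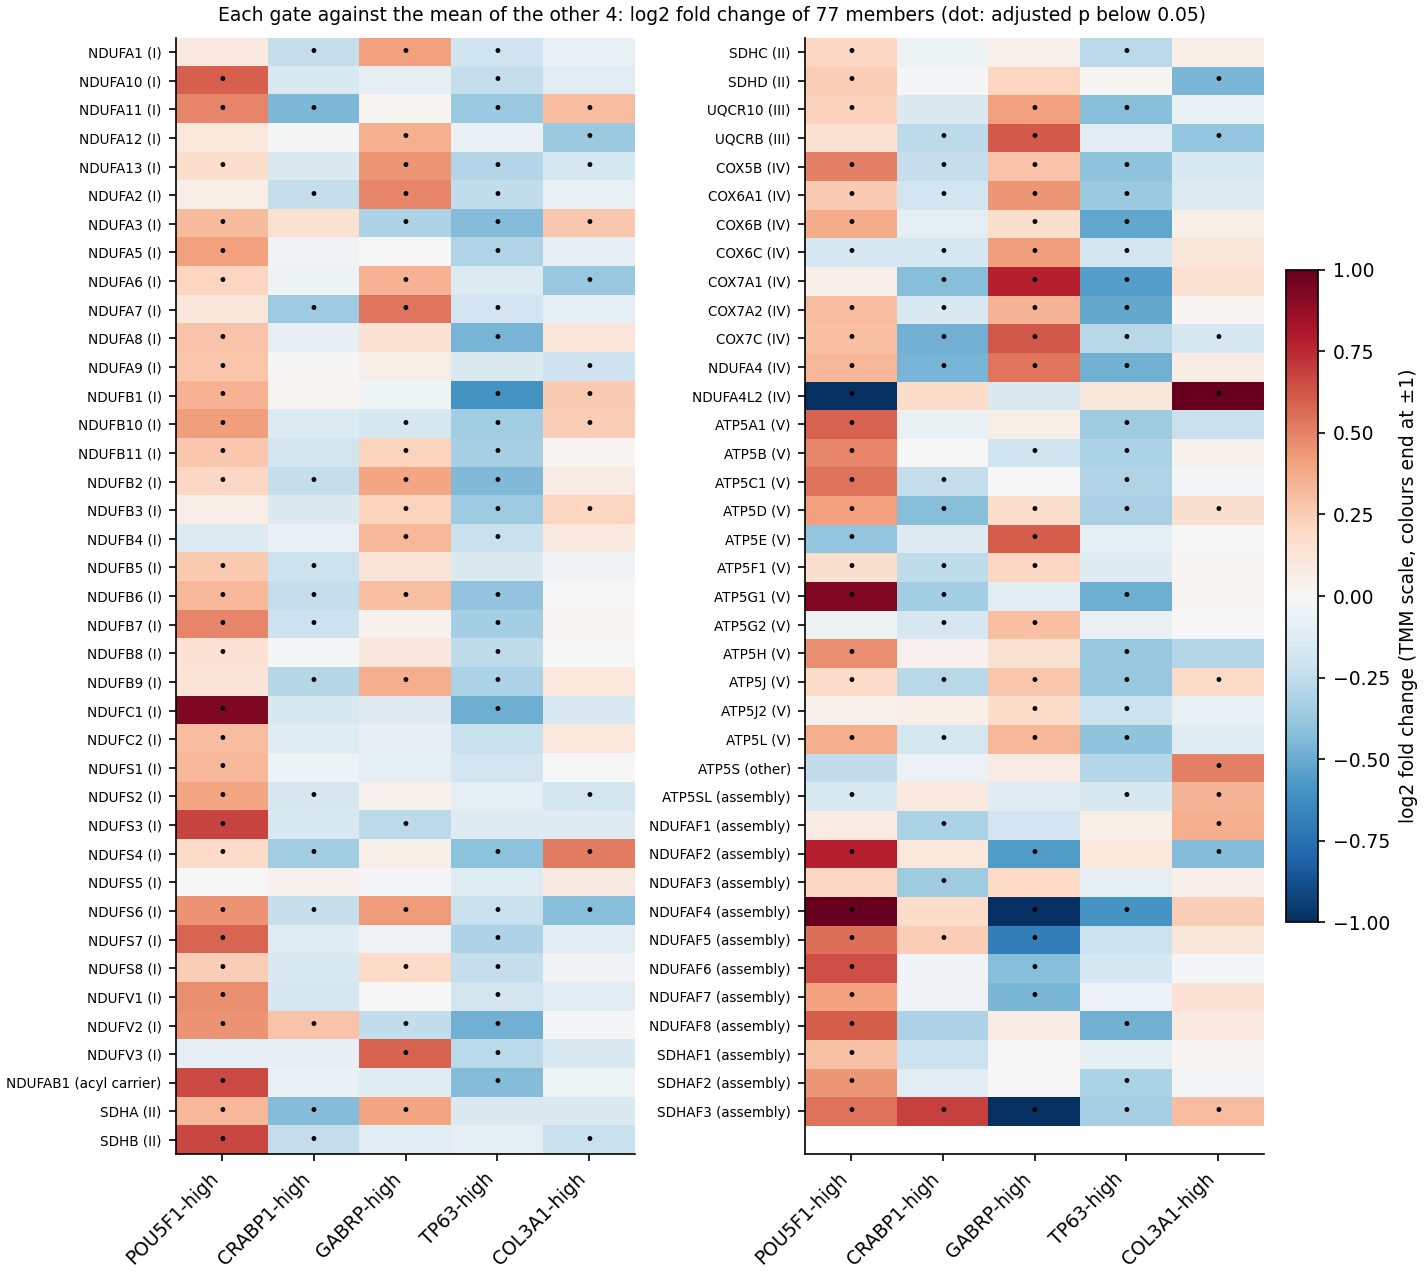
Log2 fold change on the TMM scale of the 77 members tested (rows, with the complex in brackets, V being ATP synthase), each gate against the mean of the other 4 (columns). Red is higher, blue lower, the colours end at 1 in either direction, and a dot marks an edgeR adjusted p under 0.05. The POU5F1-high column is mostly red (57 dots higher), the TP63-high column mostly blue (52 dots lower), and 6 of 12 assembly factors are lower with a dot under GABRP-high.

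Promoters of the members were read for 3 motifs. For each protein-coding gene the 250 bases before its start in the RefSeq annotation of Sscrofa11.1 were searched on both strands for GCATGCGC (bound by NRF1), CCGGAAG (bound by ETS factors such as GABPA) and AAGATGGC (bound by YY1). All 81 members with an annotated start were matched. The NRF1 motif was in 8 of 81 member promoters (9.88%) and in 2.21% of all 20625, the ETS motif in 15 (18.5%) and 7.48%, and the YY1 motif in 4 (4.94%) and 1.46%. Any of the 3 was in 25 of 81 member promoters (30.9%) and in 10.5% of all, which include genes not expressed here. Of the 5 members with the largest increase in POU5F1-high cells, NDUFS3 held the ETS motif. NDUFAF4, NDUFC1, ATP5G1 and NDUFAF2 held none of the 3. The median GC content was 58.8% in the members and 57.2% in all. A match is a description of letters, not a bound site, and annotated starts can lie away from the true ones.

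The promoters of 3 named members that hold a match are shown, 5′ to 3′ on the strand of the gene, with matches in capitals. NDUFS6, a complex I subunit, has both orientations of the NRF1 motif, which overlap, on chr16:79000002-79000251 (minus strand). NDUFS3 has an ETS motif in its last bases before the start, on chr2:15036881-15037130 (minus strand). COX5B, a complex IV subunit, has the ETS motif at 2 places, on chr3:56632108-56632357 (minus strand).
NDUFS6: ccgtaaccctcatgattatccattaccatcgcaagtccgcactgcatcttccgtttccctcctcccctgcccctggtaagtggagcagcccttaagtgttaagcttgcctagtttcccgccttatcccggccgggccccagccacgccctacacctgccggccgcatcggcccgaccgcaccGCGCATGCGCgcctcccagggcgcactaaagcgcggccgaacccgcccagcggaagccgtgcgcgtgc
NDUFS3: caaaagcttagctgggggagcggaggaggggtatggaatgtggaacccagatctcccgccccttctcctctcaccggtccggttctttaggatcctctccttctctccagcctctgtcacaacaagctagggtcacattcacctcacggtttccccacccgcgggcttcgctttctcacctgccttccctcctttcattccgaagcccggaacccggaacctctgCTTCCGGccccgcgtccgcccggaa
COX5B: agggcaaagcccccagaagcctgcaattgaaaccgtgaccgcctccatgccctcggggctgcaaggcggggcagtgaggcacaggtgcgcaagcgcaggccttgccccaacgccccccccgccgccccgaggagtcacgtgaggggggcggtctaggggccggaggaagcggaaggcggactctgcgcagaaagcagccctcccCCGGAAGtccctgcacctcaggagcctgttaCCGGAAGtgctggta

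The factors named for these motifs are regulators of respiratory genes in other cells. NRF1 had 105 and 104 CPM in POU5F1-high cells (log2 fold change 0.08 ± 0.06, edgeR adjusted p = 0.233). It was higher in TP63-high cells at 127 and 121 CPM (0.37 ± 0.05) and in CRABP1-high cells at 128 and 119 CPM (0.21 ± 0.06), and lower in GABRP-high cells at 56.1 and 59.0 CPM (-0.67 ± 0.06). GABPA did not pass the test in POU5F1-high cells (0.15, edgeR adjusted p = 0.106), and YY1 was higher there by a log2 fold change of 0.20.

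TP63-high cells had the lowest summed share of the nuclear members. By mean CPM, 30 members tested were lowest in TP63-high cells and 28 in GABRP-high cells. Complex II took less in GABRP-high cells (0.0232% and 0.0243% of UMIs) than in TP63-high cells (0.0248% and 0.0258%). Of the 77 members 52 were lower and 0 higher in TP63-high cells, where 22.4% of all genes were lower and 21.6% higher. At an unadjusted edgeR p under 0.05 there were 0 higher members as well, DESeq2 also gave 0, and gates of cells with at least 5 UMIs of their own gene and at most 1 of each other gate gene gave 1. The median log2 fold change was -0.28, against -0.02 over all genes. Complex IV fell most evenly, with 8 of 9 members lower, and complex I had 27 of 36 lower. In 20 of the 77 members both TP63-high sums lay below all 8 other sums in CPM, which was so for 3.28% of all genes.

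NDUFB1, a membrane subunit of complex I, stood at 117 and 118 CPM in TP63-high cells, and at 126 to 199 in the other sums (log2 fold change -0.60 ± 0.06, edgeR adjusted p = 2.18e-05). COX6B, which helps to hold complex IV dimers together, had 406 and 379.9 CPM there and 455 to 640.4 elsewhere (-0.52 ± 0.05, edgeR adjusted p = 1.75e-05). COX7A2, the widely expressed form of subunit 7a, had 437 and 412 CPM there and 513 to 666 elsewhere (-0.51 ± 0.05, edgeR adjusted p = 1.78e-05). In all 3 genes the TP63-high sums were the lowest of the 10 and did not overlap with any other gate.

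The subunits encoded by mitochondrial DNA did not follow in TP63-high cells. Of 12 tested, 6 were higher and 0 lower, with a median log2 fold change of 0.23, where 21.6% of all genes were higher and 22.4% lower. Without TMM factors 7 were higher and 0 lower, where 25.7% of all genes were higher and 18.2% lower. COX1, the catalytic subunit of complex IV, had 1749 and 1792 CPM in TP63-high cells and 1111 to 1634 elsewhere (0.37 ± 0.05, edgeR adjusted p = 1.05e-04), while 8 of the 9 nuclear members of the same complex were lower. The 13 mitochondrially encoded genes together took 0.683% and 0.671% of UMIs in TP63-high cells, 0.672% and 0.611% in POU5F1-high cells, and 0.483% to 0.550% in the other gates. In POU5F1-high cells 9 of the 12 mitochondrial subunits were higher and 0 lower, beside 57 of 77 nuclear ones higher. Several mitochondrially encoded genes had few UMIs beside their level in pESCs. ND2 had 30.5 to 60.5 CPM over the sums beside a mean of 1809 FPKM, and ATP6 555 to 975 CPM beside 8819 FPKM. CYTB was nearer, at 539 to 851 CPM beside 1717 FPKM. Why this was so, and the difference between the 2 kinds of gene, were not tested.

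**Figure D3:**
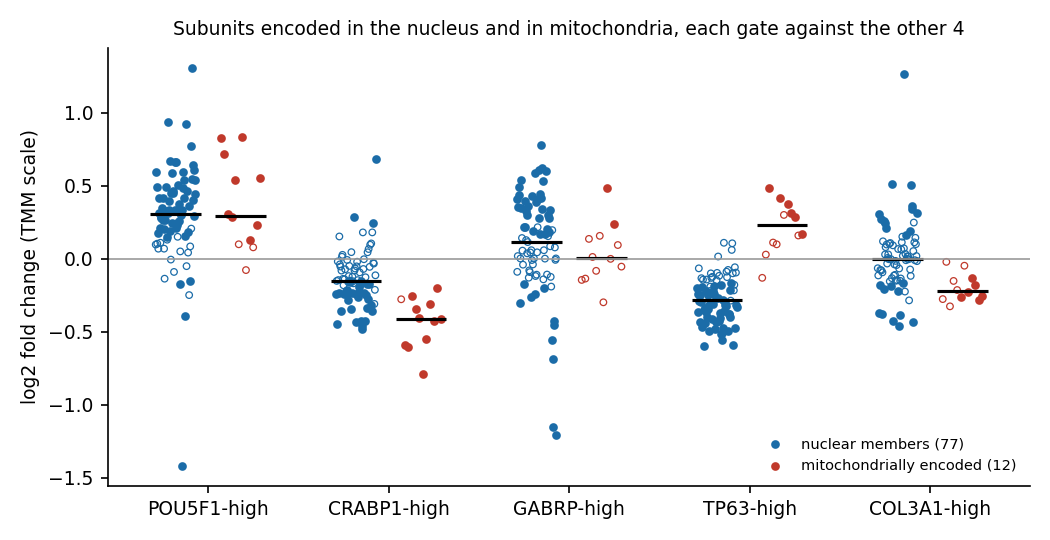
Log2 fold change on the TMM scale of 77 nuclear members (blue) and 12 mitochondrially encoded subunits (red) in each gate against the other 4. Filled points have an edgeR adjusted p under 0.05 and black lines are medians, which in TP63-high cells are -0.28 for nuclear and 0.23 for mitochondrial subunits.

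In GABRP-high cells the groups of members moved in different directions. On the TMM scale 33 of 77 were higher and 11 lower, where 29.1% of all genes were higher and 29.0% lower, with a median of 0.11 against -0.04. Without TMM factors 14 were higher and 36 lower, where 18.7% of all genes were higher and 46.1% lower, shares near those of the members. The medians were then -0.16 for the members and -0.31 for all genes. Leaving out TMM factors shifts all genes of a gate alike, so the members' median necessarily stayed 0.16 above that of all genes. In CPM, 16 of the 77 members had both GABRP-high sums below all 8 others, which was so for 28.4% of all genes. Ribosomal protein genes took 23.3% of UMIs in either library of these cells, near the 23.3% and 23.0% of cells in no gate. TP63-high cells had 22.7% and 23.4%, and POU5F1-high, CRABP1-high and COL3A1-high cells had less, from 20.0% to 21.9%. Of 93 cytosolic ribosomal protein genes tested, 82 were higher and 4 lower, and 46 and 10 without TMM factors.

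Most members of complex IV and complex III were higher in GABRP-high cells than in the mean of the other gates on both scales. Of complex IV, 8 of 9 members were higher and 0 lower, and 5 and 0 without TMM factors, and both complex III members were higher either way. In plain share of UMIs complex IV was higher in POU5F1-high cells, at 0.465% and 0.478% against 0.442% and 0.432% in GABRP-high cells. Complex III had 0.0329% and 0.0325% in POU5F1-high cells and 0.0329% and 0.0300% in GABRP-high cells. COX7C, a small subunit of complex IV, had 454 and 422 CPM, beside 438 and 440.4 in POU5F1-high cells and 296 to 336 in the other gates (log2 fold change 0.62 ± 0.06, edgeR adjusted p = 1.64e-06). UQCRB, which binds ubiquinone in complex III, had 93.0 and 86.6 CPM against 56.7 to 86.3 elsewhere (0.61 ± 0.09, edgeR adjusted p = 9.14e-05). For COX7C the GABRP-high and POU5F1-high sums overlapped.

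ATP5E was highest in these cells, at 367 and 358 CPM (0.60 ± 0.05, edgeR adjusted p = 1.15e-06), so that it was lowest where most of its partners were highest. NDUFV3, an accessory subunit of complex I, had 205 and 182 CPM against 134 to 177 elsewhere (0.59 ± 0.07, edgeR adjusted p = 1.76e-05). COX7A1, the heart and muscle form of subunit 7a, was low throughout, but was also highest here, at 10.7 and 11.6 CPM against 6.05 to 9.72 (0.78 ± 0.13, edgeR adjusted p = 2.49e-04). All 3 were also higher without TMM factors.

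Summed, the assembly factors among the members had their lowest share of UMIs in GABRP-high cells, at 0.0300% and 0.0324% against 0.0370% to 0.0538% in the other gates. Of 12, 6 were lower and 0 higher in GABRP-high cells (10 and 0 without TMM factors), with a median log2 fold change of -0.31. By mean CPM, NDUFAF3 was lower in CRABP1-high and NDUFAF8 in TP63-high cells than in GABRP-high cells, where their log2 fold changes were 0.20 and 0.08. Of 20 assembly factors outside the prefixes, 5 were lower and 2 higher there on the TMM scale, where 29.0% of all genes were lower, and 14 were lower and 1 higher without TMM factors, where 46.1% were lower. SDHAF3, which helps to mature the iron-sulfur subunit of complex II, had 7.75 and 8.17 CPM in GABRP-high cells and 14.02 to 31.8 elsewhere (-1.21 ± 0.12, edgeR adjusted p = 3.94e-06). NDUFAF4 fell by 1.15 on the log2 scale and NDUFAF5 by 0.69. SDHB, the protein SDHAF3 serves, had 79.5 and 85.5 CPM in the same cells and a log2 fold change of -0.11 ± 0.07 on the TMM scale (edgeR adjusted p = 0.207), but -0.38 without TMM factors, where it was past the threshold.

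In CRABP1-high cells 31 of 77 members were lower and 3 higher on the TMM scale, where 19.7% of all genes were lower and 19.4% higher, with a median of -0.15 against -0.02. Without TMM factors, which shifts all genes of a gate alike, 5 were lower and 17 higher, where 9.67% of all genes were lower and 36.3% higher, and the medians were 0.06 for the members and 0.20 for all genes. The members' median was thus 0.13 below that of all genes on both scales. The count also fell with DESeq2, to 18 lower and 2 higher, and with a top 10% gate, to 17 lower and 5 higher. The 3 higher members were higher on both scales. They were SDHAF3 (31.8 and 27.7 CPM, log2 fold change 0.68 ± 0.09), NDUFV2 (205 and 228 CPM, 0.29 ± 0.06), a core iron-sulfur subunit of complex I, and the assembly factor NDUFAF5 (28.6 and 29.3 CPM, 0.25 ± 0.08). NDUFV2 was as high in POU5F1-high cells, at 214 and 222 CPM, and at most at 158 CPM in all other sums.

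Among those lower on both scales were COX7C (327 and 296 CPM, -0.48 ± 0.06), NDUFA4 (741 and 745 CPM, -0.46 ± 0.05), NDUFA11 (117 and 119.5 CPM, -0.45 ± 0.07) and SDHA, the flavoprotein that oxidizes succinate (49.2 and 43.8 CPM, -0.43 ± 0.07). The sums of CRABP1-high cells overlapped with those of another gate in COX7C and SDHA. In NDUFA11 they did not overlap with any gate, but GABRP-high cells were close at 117 CPM in both libraries. In NDUFA4 they lay between TP63-high cells (676 and 685 CPM) and all other gates. Of 12 mitochondrially encoded subunits, 11 were lower and 0 higher (5 and 0 without TMM factors). Doublets, marked as the top-scoring cells at a rate fixed in advance, made up 10.1% and 9.98% of CRABP1-high cells. They made up 3.58% and 1.73% of POU5F1-high cells. The method's own threshold marked 1 cell in library 1 and 0 in library 2. Without marked doublets 26 members were lower and 4 higher.

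In COL3A1-high cells the direction depended on the settings. On the TMM scale they had 13 members higher, 11 lower and 53 not past the threshold, where 28.1% of all genes were higher and 23.5% lower. The median log2 fold change was -0.00. Without TMM factors 11 were higher and 21 lower, where 24.3% of all genes were higher and 27.3% lower, and among cells with 20000 to 35000 UMIs 7 were higher and 23 lower, where 25.7% and 23.7% of all genes were. NDUFS4, an accessory subunit on the NADH arm of complex I, had 284 and 257 CPM there against 174 to 253 elsewhere (0.51 ± 0.06, edgeR adjusted p = 3.30e-05). NDUFS6, an accessory subunit of the same arm, had 152 and 164 CPM against 189 to 283 (-0.43 ± 0.07, edgeR adjusted p = 1.63e-04). Both genes were without overlap between COL3A1-high cells and the rest, in opposite directions.

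Other members that stood apart in COL3A1-high cells were ATP5S (25.8 and 25.2 CPM, 0.51 ± 0.11), SDHD, a membrane anchor of complex II (10.7 and 12.6 CPM, -0.46 ± 0.10), and NDUFA4L2 (2.28 and 1.93 CPM, 1.27 ± 0.35, edgeR adjusted p = 0.00890). SDHD had few UMIs beside its level in pESCs, as described below. NDUFA4L2 rested on 125 UMIs in all gated cells, and with DESeq2 it did not pass the threshold. COL3A1-high cells also had the most UMIs of MYL7, and doublets were marked in 6.03% and 10.8% of them. The part of either in these values was not tested.

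Other mitochondrial genes were read from lists to place the members. Over all genes, 31.6% were higher and 29.6% lower in POU5F1-high cells, and 21.6% and 22.4% in TP63-high cells. In POU5F1-high cells 69 of 76 mitochondrial ribosomal protein genes were higher and 0 lower, 17 of 23 import genes were higher and 0 lower, and 12 of 17 genes of the tricarboxylic acid cycle were higher and 1 lower. IDH3A, the catalytic subunit of NAD-dependent isocitrate dehydrogenase, had the largest of these cycle differences, with 56.9 and 60.2 CPM in POU5F1-high cells and 24.9 to 33.9 elsewhere (log2 fold change 1.01 ± 0.07, edgeR adjusted p = 2.14e-07). The cytosolic ribosome went the other way there, with 53 of 93 genes lower and 13 higher. In TP63-high cells 48 of 76 mitochondrial ribosomal and 16 of 23 import genes were lower, and 1 of each was higher. The other lists were nearer to the share of all genes there, with 2 higher and 4 lower of 17 in the tricarboxylic acid cycle, 3 and 3 of 17 carriers, 2 and 6 of 20 other assembly factors, and 4 and 2 of 18 regulators, while 5 of 8 uncoupling and reactive oxygen genes were lower and 0 higher.

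Among the electron carriers and other entry points, 11 of 17 genes were higher in POU5F1-high cells and 2 lower. COQ8A, a kinase-like protein of ubiquinone synthesis, had the largest difference (1.56, edgeR adjusted p = 2.18e-06). CYCS, which encodes cytochrome c and was picked after its values were seen, had 327 and 346 CPM in POU5F1-high cells, 126 to 187 elsewhere and the lowest sums in TP63-high cells, at 129.7 and 126 CPM. All 8 genes tested of the list of uncoupling and reactive oxygen genes were higher in POU5F1-high cells, led by SOD2, the superoxide dismutase of the matrix, with 112 and 124 CPM against 13.7 to 43.2 (1.88 ± 0.10, edgeR adjusted p = 3.15e-08). The listed assembly factors outside the prefixes gave 11 of 20 higher and 2 lower.

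Of 18 regulators of mitochondrial biogenesis, 9 were higher and 2 lower in POU5F1-high cells, and 3 were higher and 9 lower in GABRP-high cells (3 and 11 without TMM factors), where 29.1% of all genes were higher and 29.0% lower. TFAM, which packs mitochondrial DNA and helps to start its transcription, had 66.6 and 64.7 CPM in POU5F1-high cells against 26.7 to 49.6 elsewhere (0.68 ± 0.07, edgeR adjusted p = 2.90e-06). It was lowest in GABRP-high cells at 26.7 and 29.3 CPM (-0.53 ± 0.08, edgeR adjusted p = 8.55e-05). PPARGC1A, a coactivator that raises respiratory genes in many tissues, had 206 and 211 CPM in GABRP-high cells and 232 and 191 in TP63-high cells. It had 26.2 to 60.1 CPM in the other 6 sums, with no overlap. It was thus as high in TP63-high cells, where the summed share of the nuclear members was lowest, as in GABRP-high cells. In POU5F1-high cells, where that share was highest, it was lower (log2 fold change -1.04 ± 0.16, edgeR adjusted p = 1.33e-04). ESRRA, a nuclear receptor that PPARGC1A coactivates, was highest in GABRP-high cells at 23.8 and 26.5 CPM (1.07 ± 0.10, edgeR adjusted p = 2.00e-06).

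In pESCs the members were among the well expressed genes. FPKM, the fragments per kilobase of transcript and per 1000000 fragments, can be compared between genes. The median of the members' mean FPKM was 69.7, against 9.60 for the 11720 genes with a mean of at least 1 FPKM, and the members took 1.99%, 1.70% and 1.71% of all FPKM in IVFP25, PA_4P7 and PAP25. Group medians were highest for ATP synthase (166 FPKM) and complex IV (153), then complex II (85.0), complex III (72.3) and complex I (56.0). The assembly factors had a median of 8.33 FPKM. Of the groups of a single gene, NDUFAB1 had 143 and ATP5S 3.86 FPKM. ATP5A1 and ATP5B, which form the catalytic head of ATP synthase, led all members at 636 ± 16.01 and 625 ± 44.0 FPKM (mean ± SD, n = 3), and the 2 did not differ beyond their spread.

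Isoforms of complex IV were unequal in pESCs. COX7A2 had 158, 105 and 118 FPKM in IVFP25, PA_4P7 and PAP25, and the muscle form COX7A1 had 5.47, 2.72 and 1.86. NDUFA4 had 266, 260.0 and 251 FPKM, and NDUFA4L2 0.232, 0.0979 and 0.751. COX8H was listed at 0 in 2 libraries and at 0.0745 FPKM in PA_4P7, and it was left out of the tests in blastoids as too low. The 3 c-subunit genes ATP5G1, ATP5G2 and ATP5G3, which encode the same mature protein, had mean levels of 166 ± 23.3, 103 ± 43.4 and 385 ± 62.0 FPKM.

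The pESC libraries differed among themselves. Of 79 members with a mean of at least 1 FPKM, 63 were higher in IVFP25 than in PA_4P7, with a median log2 ratio of 0.30 against -0.05 over all 11720 genes. In IVFP25 against PAP25, 73 were higher, with a median of 0.35 against -0.03, and in PA_4P7 against PAP25, 44 were higher, with a median of 0.02 for the members and for all genes. Past 1.5-fold, 15 were higher in IVFP25 than in PA_4P7 (6.98% of all genes) and 0 lower (8.04%), and 11 were higher in IVFP25 than in PAP25 (5.77%) and 0 lower (10.0%). Between the other two, 4 were higher in PA_4P7 (5.79%) and 2 in PAP25 (9.14%). With 1 library each there was no test, and these counts share IVFP25.

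Members past 2-fold between any 2 pESC libraries, with a mean of at least 5 FPKM, were ATP5G2, NDUFA3, NDUFA13, NDUFB1, SDHAF3 and UQCRB. NDUFA13 had 78.0, 52.8 and 26.7 FPKM in IVFP25, PA_4P7 and PAP25, ATP5G2 had 154, 76.8 and 80.1, and UQCRB had 70.5, 30.8 and 57.04. IVFP25 was highest for all 6 except SDHAF3, which was highest in PA_4P7 at 7.32 FPKM.

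**Figure D4:**
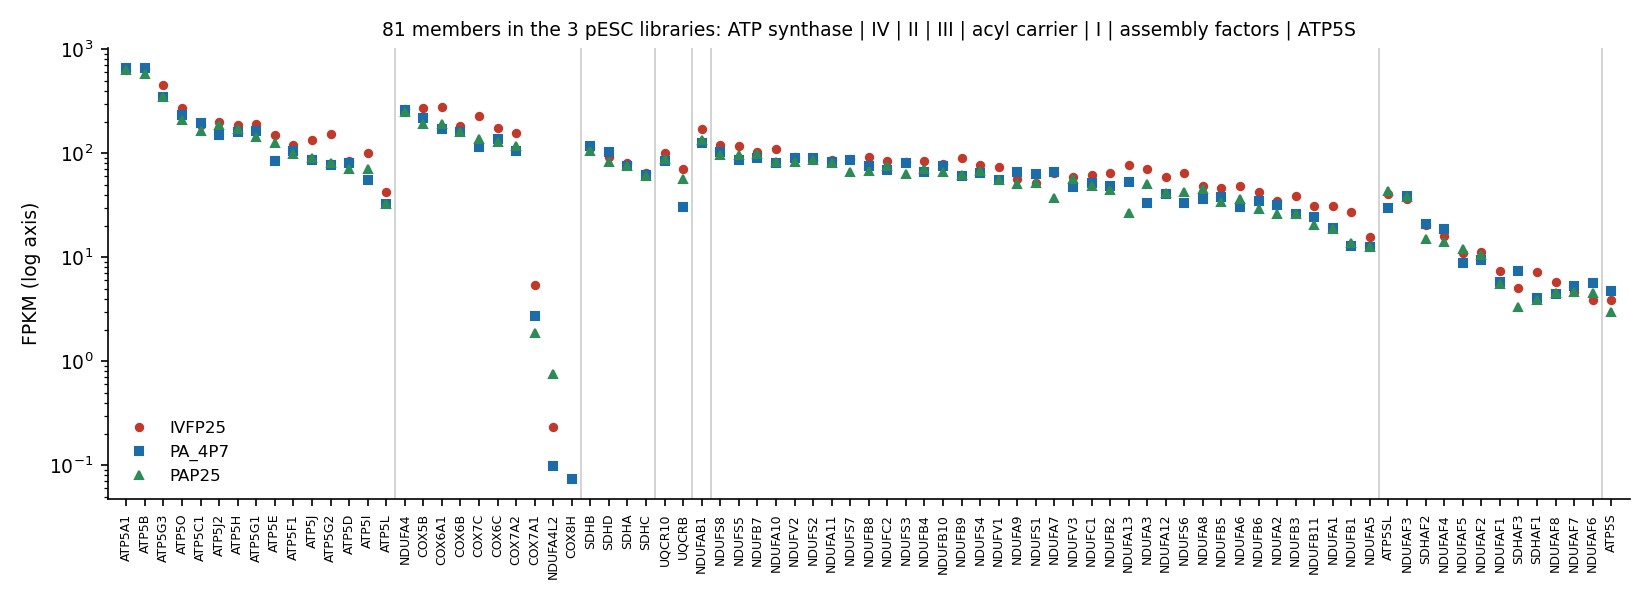
FPKM (log axis) of the 81 members in the 3 pESC libraries, in groups separated by grey lines and ordered by mean level within a group. IVFP25 (red circles) lies above PA_4P7 (blue squares) in 63 of 79 members with a mean of at least 1 FPKM, ATP5A1 and ATP5B lead, and NDUFA4L2, COX7A1 and COX8H lie far below the rest of complex IV. Values of 0 are not drawn.

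Several ATP synthase genes that were high in pESCs were nearly missing from the blastoid counts. ATP5A1 had a mean of 14.3 CPM over all cells beside 636 FPKM in pESCs, ATP5H had 8.81 CPM beside 173 FPKM, and ATP5G1 20.4 CPM beside 166 FPKM. ATP5G3, ATP5O and ATP5I had 0 UMIs in all cells of both libraries beside 385, 238 and 75.8 FPKM. Their later symbols ATP5F1A, ATP5PD, ATP5MC1, ATP5MC3, ATP5PO and ATP5ME were also among the features, with 0 UMIs each, as were ATP5F1E, ATP5MF and ATP5IF1. Of 143 features without a row in the FPKM table, 121 had 0 UMIs, whereas 15.6% of the features with a row did.

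CPM and FPKM are different scales, so only the spread of their ratio was read. Of 1311 genes with at least 50 FPKM, 68 (5.19%) had a CPM under 0.2 times their FPKM and 9 had no UMI, and of 52 such members 7 did and 3 had none. The 7 were ATP5A1, ATP5G1, ATP5G3, ATP5H, ATP5I, ATP5O and SDHD, named here after their values were seen. The median ratio was 1.56 over these genes and 1.93 over the members. At the other end ATP5L, also named after its values were seen, had 1013 CPM beside 35.9 FPKM, a ratio of 28.2. It had the lowest FPKM of the ATP synthase members. The summed shares of UMIs thus weigh the members otherwise than FPKM do. Why these genes had so few UMIs was not tested, and a low or zero count of them in blastoids is not read as low expression. ATP5A1 was still counted with 1611 UMIs in the gated cells, and had 18.6 and 20.3 CPM in POU5F1-high cells against 10.5 to 15.6 elsewhere (0.59 ± 0.10, edgeR adjusted p = 2.29e-04).

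**Figure D5:**
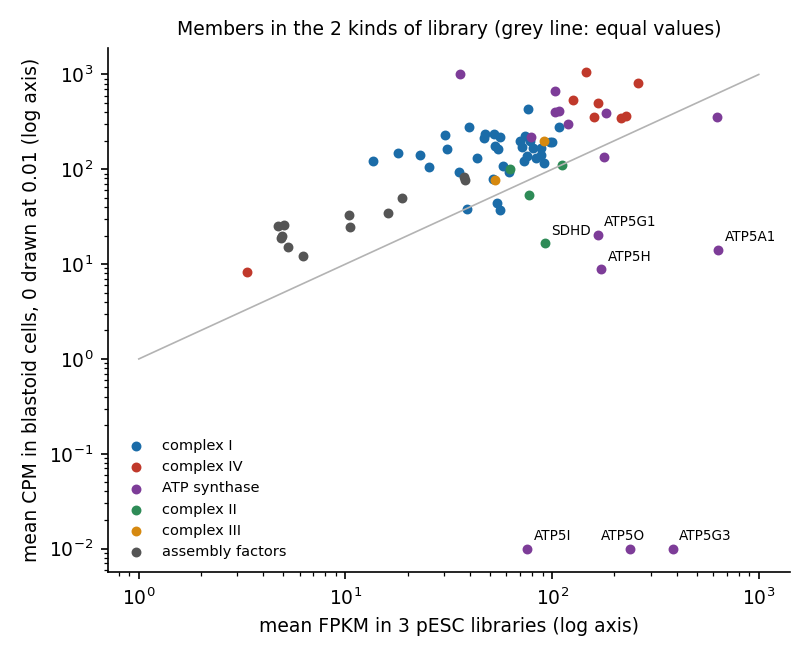
Mean CPM over all blastoid cells against mean FPKM in the 3 pESC libraries, both on log axes, for members with a mean of at least 1 FPKM, coloured by group. Genes named in the plot have a CPM under 0.2 times an FPKM of at least 50, and ATP5G3, ATP5O and ATP5I, with 0 UMIs, are drawn at 0.01.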

How the data were processed

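Single-cell RNA-seq of day 6 blastoids and bulk RNA-seq of pESCs were used. The authors deposited raw UMI counts per gene for all barcodes, made with Cell Ranger 7.1.0 on susScr11, and FPKM values per RefSeq transcript, for which the submitters' processing notes name Trim Galore 0.6.4, HISAT2 2.2.1 and StringTie 2.2.1. FPKM were summed over the transcripts of a symbol, and their depth is not given in the sources used here. The members and gene lists were chosen with earlier results of these data known. Named members were the 5 with the largest change in each direction per gate, isoform families, the highest and lowest FPKM of each complex, members at 0 and those past 2-fold between pESC libraries, and, of the lists, the regulators and the largest changes.

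UMIs were summed per library and gate (10 sums). Genes passing filterByExpr were tested in R 4.3.3 with edgeR 4.0.16 (TMM, quasi-likelihood F test, each gate against the mean of the other 4), and DESeq2 1.42.0 was an alternative. Standard errors were the log2 fold change divided by the square root of F. Doublets were scored with scanpy 1.11.5. The cells with the highest scores were marked at an assumed 0.8% per 1000 cells, 434 in library 1 and 535 in library 2, and left out in an alternative. The fit was tested on simulated counts of the POU5F1-high comparison over 13477 genes, where it found 106 of 109 genes set to a 2-fold change and 72 of 91 set to 1.5-fold, and falsely called 15 of 13277 others. The simulation changed few genes, in 1 gate, with 1 dispersion for all genes and independent sums. In the data 31.6% of genes were higher and 29.6% lower in this comparison. The simulation thus cannot show how the scaling or the rate of false calls holds there. The library pairs the sums, since all gates of a library come from the same preparation, and the correlation of their deviations over 16084 genes ran from 0.036 to 0.165 over 10 pairs of gates. Promoter sequences were read from the RefSeq genome Sscrofa11.1, the build of the files. Columns of the FPKM table name pESC libraries that could be tied to the group only.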

Additional observations from a re-analysis of the deposited data

How the results depend on the processing

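Counts of members moved with several settings. Without TMM factors 22 members were called in CRABP1-high cells (17 higher, 5 lower), 14 were higher and 36 lower in GABRP-high cells, and 21 were lower in COL3A1-high cells. Log2 fold changes in CRABP1-high cells turned to 0.21 for ATP5B, 0.044 for ATP5G2, 0.040 for ATP5L, 0.025 for COX6A1, 0.042 for COX6C, 0.061 for COX7A2, 0.18 for NDUFA5 and 0.16 for SDHC. In GABRP-high cells they turned to -0.10 for COX6B, -0.25 for NDUFA11, -0.27 for NDUFA5, -0.21 for NDUFS4, -0.084 for NDUFS8 and -0.23 for SDHC. By construction this alternative shifts all genes of a gate alike. DESeq2 called 20 members in CRABP1-high cells (18 lower) and 8 higher in COL3A1-high cells. A top 10% gate called 22 in CRABP1-high cells (5 higher, 17 lower), where NDUFA6 turned to 0.22, and gave summed levels of 1.57% in CRABP1-high, 1.51% in GABRP-high, 1.35% in TP63-high and 1.4952% in COL3A1-high cells. Gates of cells with at least 5 UMIs of their gene gave 1 higher in TP63-high and 20 higher in COL3A1-high cells, and summed levels of 1.70% in POU5F1-high, 1.52% in CRABP1-high, 1.4965% in GABRP-high, 1.35% in TP63-high and 1.47% in COL3A1-high cells. Cells with 20000 to 35000 UMIs, an alternative chosen after seeing the data, gave 1 lower in POU5F1-high, and 7 higher and 23 lower in COL3A1-high cells. Apart from the scaling, the cause was not tested.

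With the library as a replicate block, 67 members were called in POU5F1-high cells, 45 in CRABP1-high, 48 in GABRP-high, 59 in TP63-high and 32 in COL3A1-high cells, and the pairing moved no count by more than 1.5 times. Taking the highest transcript of a symbol gave a median of 57.9 FPKM. Without 1 library, summed levels ran from 1.74% to 1.83% in POU5F1-high, 1.52% to 1.53% in CRABP1-high, 1.47% to 1.48% in GABRP-high, 1.31% to 1.33% in TP63-high and 1.44% to 1.46% in COL3A1-high cells, and the median FPKM from 61.6 to 71.8. With 1 blastoid library no residual degrees of freedom remain, so these are values with no test.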
